A study of Homo sapiens with 4 samples.

Results

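The domain calls were examined at 4 spans that hold 7 imprinted genes, H19, IGF2 and KCNQ1 on chromosome 11, DLK1 and MEG3 on chromosome 14, and SNRPN and UBE3A on chromosome 15. These are 7 of the 59675 genes that the RefSeq table (GRCh38.p14) places on the 24 chromosomes, and the rule that picks them uses name and position and no measured value, though the set was drawn up with earlier results of these data known. Around each span, all domains, boundary regions and gaps within 1 Mb were taken from each library. The data are Hi-C libraries of H1, an established line of human embryonic stem cells, and there are 4 of them. Every culture was infected with a lentivirus that carried a short hairpin RNA and was then selected with puromycin. In 2 libraries the hairpin was directed at luciferase, a gene that human cells lack (shLUC), and in 2 at HNRNPU, a nuclear RNA-binding protein (shHNRNPU). The sources used here do not say whether the repeats came from separate infections, so the spread between libraries may be partly technical, and p-values measure only that spread. They also give neither the hairpin sequences nor the time from selection to fixation, and the files hold no expression values, so that neither the fall of HNRNPU nor the identity of the cells could be checked.

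Hi-C joins the ends of chromatin fragments that lie close in the nucleus, and a domain is a stretch of chromosome that contacts itself more than its surroundings. The files list domains, boundary regions between domains, and gaps, all in bins of 40 kb, with no contact counts, so that the depth of each library is unknown. A border is the start or end of a domain. Over all chromosomes there were 4018 and 4009 domains in shLUC and 3981 and 3419 in shHNRNPU, and shHNRNPU replicate 2 thus stood apart from the other 3 libraries. The 4 windows held 21 and 19 domains with the luciferase hairpin, and with the HNRNPU hairpin 20 (replicate 1) and 11 (replicate 2). Where replicate 2 carries a difference, the value without it is given.

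In imprinted clusters, genes are read mainly from the copy inherited from either the mother or the father, according to DNA methylation set in the germ line. H19 (a long non-coding RNA read from the maternal copy) and IGF2 (a fetal growth factor read from the paternal copy) share enhancers, and the control region between them binds the insulator protein CTCF on the maternal copy. KCNQ1, a potassium channel gene, contains the start of the antisense RNA KCNQ1OT1, whose transcription from the paternal copy silences CDKN1C, an inhibitor of the cell cycle. DLK1 encodes a Notch-like membrane protein and is read from the paternal copy, whereas MEG3 and the small RNAs that follow it are read from the maternal copy. SNRPN encodes a splicing protein and is read from the paternal copy, as is the long host transcript SNHG14. UBE3A, a ubiquitin ligase, lies at its far end and is read mainly from the maternal copy in neurons. The domain calls do not separate the parental copies.

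The promoters of H19, MEG3 and UBE3A are shown because distances to borders are counted from these starts, and that of SNURF because a border set it apart from the outer SNRPN start in 1 library. They run from 250 bases before to 50 bases from the start (RefSeq, GRCh38.p14), and are written along the gene's own strand. Capitals mark CG dinucleotides. DNA methylation was not measured, so the capitals do not show which of these sites, if any, carry an imprint. The table also has entries for 35116 promoters of this length, with a median of 14 CG dinucleotides.
H19, chr11:2001217-2001516, minus strand: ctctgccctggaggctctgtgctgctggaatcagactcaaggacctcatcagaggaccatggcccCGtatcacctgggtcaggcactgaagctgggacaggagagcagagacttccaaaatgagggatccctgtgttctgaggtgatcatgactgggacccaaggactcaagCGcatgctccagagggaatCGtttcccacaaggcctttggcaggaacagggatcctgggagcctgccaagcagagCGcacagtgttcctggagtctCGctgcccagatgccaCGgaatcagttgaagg
MEG3, chr14:100825858-100826157, plus strand: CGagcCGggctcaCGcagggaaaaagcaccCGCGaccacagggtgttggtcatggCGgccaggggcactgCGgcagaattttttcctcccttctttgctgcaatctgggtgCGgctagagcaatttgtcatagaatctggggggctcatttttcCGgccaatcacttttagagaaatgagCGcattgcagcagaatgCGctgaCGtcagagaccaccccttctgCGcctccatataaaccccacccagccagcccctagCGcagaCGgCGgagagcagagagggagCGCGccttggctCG
SNURF (a gene inside SNRPN), chr15:24954737-24955036, plus strand: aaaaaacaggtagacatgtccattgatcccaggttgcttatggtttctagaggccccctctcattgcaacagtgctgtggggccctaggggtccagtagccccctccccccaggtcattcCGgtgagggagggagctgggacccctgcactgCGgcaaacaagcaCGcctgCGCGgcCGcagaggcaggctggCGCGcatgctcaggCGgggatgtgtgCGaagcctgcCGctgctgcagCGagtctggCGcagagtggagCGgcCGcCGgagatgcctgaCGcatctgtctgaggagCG
UBE3A, chr15:25439007-25439306, minus strand: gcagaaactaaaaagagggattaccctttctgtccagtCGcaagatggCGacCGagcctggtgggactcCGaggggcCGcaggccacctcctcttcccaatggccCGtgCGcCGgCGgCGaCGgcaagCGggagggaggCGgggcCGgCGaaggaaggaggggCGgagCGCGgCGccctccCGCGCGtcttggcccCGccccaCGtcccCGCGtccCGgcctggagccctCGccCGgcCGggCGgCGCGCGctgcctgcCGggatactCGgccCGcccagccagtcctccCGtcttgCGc
H19 had 6 CG dinucleotides, a number reached by 66.3% of all promoters, and MEG3 and SNURF had 19 and 18, reached by 42.9% and 44.5%. UBE3A had 39, reached by 8.71%. The HindIII site AAGCTT, at which the chromatin was cut (it reads the same on both strands), occurred in none of the 4 promoters and in 5.84% of all promoters. IGF2, KCNQ1 and DLK1 have no entry in the promoter table.

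The starts of H19 and IGF2 lay in the same domain in every library. H19 (chr11:1995176-2001266) is read toward lower coordinates and starts at its upper end. A domain began at 2.00 Mb in all 4 libraries, so the border lay 1.27 kb from the H19 start and inside its body. The first part of H19 was in the domain and the rest in a gap, which ran from 1.92 to 2.00 Mb in 3 libraries and from 1.96 to 2.00 Mb in shHNRNPU replicate 1. The microRNA hairpin inside H19 (MIR675, chr11:1996759-1996831) was therefore on the gap side of the border in every library. Its mature products, with the seed (bases 2 to 8) in capitals, are as follows.
hsa-miR-675-5p: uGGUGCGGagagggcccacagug
hsa-miR-675-3p: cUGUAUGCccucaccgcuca
The bin is 40 kb long, so the files cannot place this border to within the length of H19, which is 6.09 kb.

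The far end of the H19 and IGF2 domain was less stable. It lay at 2.16 Mb in shLUC replicate 1, at 2.28 Mb in shLUC replicate 2 and shHNRNPU replicate 1, and at 2.40 Mb in shHNRNPU replicate 2. The domain was thus 160 and 280 kb long in shLUC and 280 and 400 kb in shHNRNPU. The groups met at 280 kb, and the difference of 120 kb between the means of 220 ± 84.9 and 340 ± 84.9 kb (SD, n = 2 each) had an exact permutation p of 0.667. The IGF2 start (gene at chr11:2129117-2149566, also read toward lower coordinates) was 10.4 kb from the nearest border in shLUC replicate 1. In the other 3 libraries it was 130 kb, 130 kb and 150 kb away. Insulin (INS) and TH, the enzyme of dopamine synthesis, and ASCL2, a transcription factor of the trophoblast, lie just beyond IGF2. These genes shared its domain in 3 of 4 libraries and were cut off from it in shLUC replicate 1, where the border at 2.16 Mb fell within INS. With bins of 40 kb, the calls cannot place a border to within the length of INS.

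KCNQ1 was outside the H19 and IGF2 domain in every library. Its start (gene at chr11:2445008-2849105) lay 5.01 kb from a border at 2.44 Mb, which all 4 libraries had at the same bin. With bins of 40 kb, the calls cannot tell on which side of the start this border fell. A domain opened at this border in 3 libraries. It ended at 2.92 Mb in shLUC replicate 2 and shHNRNPU replicate 1 (480 kb) and at 2.96 Mb in shHNRNPU replicate 2 (520 kb). Thus the gene body of 404 kb fitted whole into a domain, together with KCNQ1OT1 and CDKN1C. In shLUC replicate 1 the bins from 2.44 to 2.60 Mb were a gap instead, and a domain from 2.60 to 2.96 Mb held the rest of KCNQ1, KCNQ1OT1 and CDKN1C. The KCNQ1 start had no domain length in that library, which leaves 1 shLUC value of 480 kb beside 480 and 520 kb in shHNRNPU and no test of the groups. Between the H19 and KCNQ1 starts there were 2 borders, or 3 in shLUC replicate 2.

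PHLDA2, a growth-restraining gene expressed in placenta and imprinted, lies next to CDKN1C. The border beyond CDKN1C lay at 2.96 Mb in shLUC replicate 1 and in shHNRNPU replicate 2, and at 2.92 Mb in the other two. PHLDA2 therefore shared a domain with CDKN1C in the first pair of these libraries only. It was in a boundary region in shLUC replicate 2 and in the next domain in shHNRNPU replicate 1. A shift of 1 bin moved the gene across the border, and libraries of the same group fell on different sides.

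Beyond this border the groups differed. Both shLUC libraries had a gap from 3.12 to 3.16 Mb, within the lipid transporter gene OSBPL5 (chr11:3087107-3165310), with a border on each side. Neither shHNRNPU library had a border within 3 bins of either. The nearest were 160 and 200 kb away, and OSBPL5 lay whole inside a domain of 560 kb (2.92 to 3.48 Mb) in replicate 1 and of 1160 kb (2.96 to 4.12 Mb) in replicate 2. CARS1, the cysteinyl-tRNA synthetase gene, was in a domain of 160 and 120 kb in shLUC and in the same long domains as OSBPL5 in shHNRNPU. Of all bins in a domain in every library, 15.7% had longer domains in both shHNRNPU libraries than in both shLUC libraries. By the same rule 10.6% had shorter ones. The 2 borders are the edges of the same gap of 1 bin and are not separate events. Both lie less than a bin from an end of OSBPL5, so the calls cannot tell whether they fall inside it. They were not counted as absent from shHNRNPU when absence had to hold within 5 bins. With 3 bins, 5.99% of the 3322 borders that the shLUC libraries shared over the genome were absent from shHNRNPU.

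**Figure D1:**
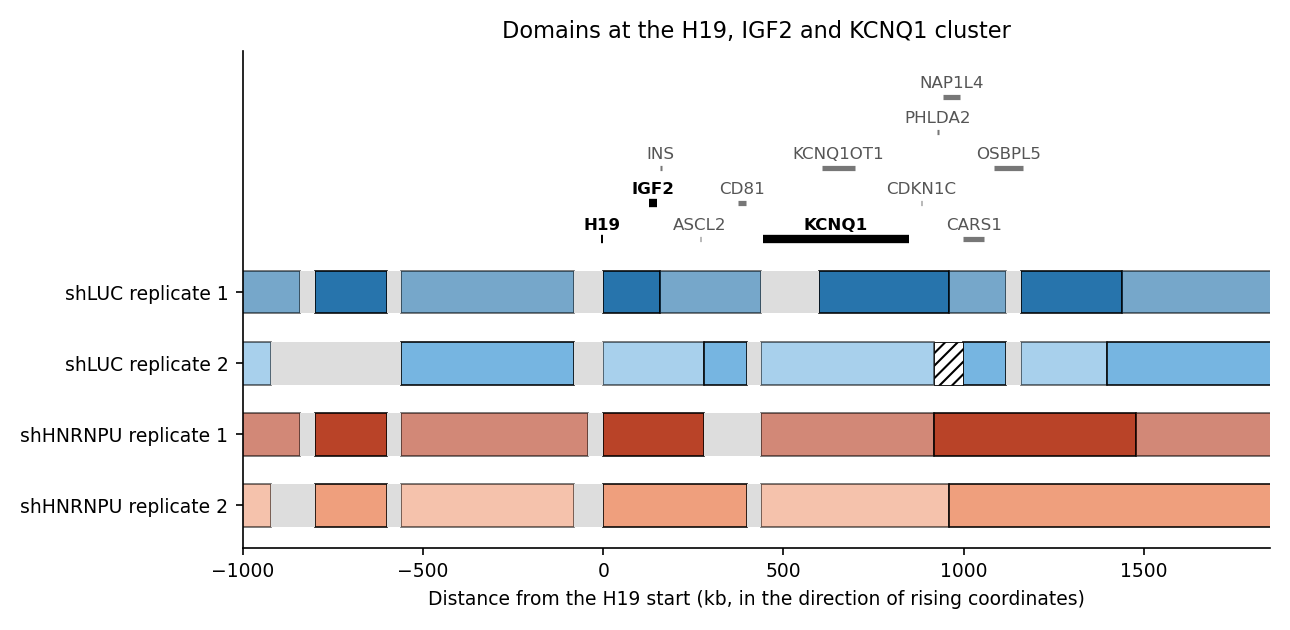
Domains (filled blocks, in alternating shades), boundary regions (hatched) and gaps (grey) within 1 Mb of the chromosome 11 spans, by library, against the distance in kb from the H19 start; members are in bold. A domain starts within 2 kb of 0 in every library and holds the H19 start and IGF2. The shLUC libraries alone have a gap beneath OSBPL5.

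The number of borders around these genes was lower in shHNRNPU. Within 1 Mb of the H19 and IGF2 span there were 12 and 11 borders in shLUC and 9 in each shHNRNPU library (11.5 ± 0.707 and 9 ± 0, SD, n = 2 each). In the KCNQ1 window there were 10 and 11 borders in shLUC and 7 and 6 in shHNRNPU (10.5 ± 0.707 and 6.5 ± 0.707). The groups did not overlap in either window, and these windows share the stretch from 1.44 to 3.16 Mb. The exact permutation p was 0.333 for both (two-sided, n = 2 each), the smallest that 2 libraries against 2 can give, so that no comparison of this design can pass the usual threshold. Of all windows of 54 bins (2.16 Mb) along the genome, 12.7% had fewer borders in both shHNRNPU libraries than in both shLUC libraries, and of those of 60 bins (2.40 Mb) 13.3% did. The KCNQ1 window held 7 domains in both shLUC libraries and 5 and 4 in shHNRNPU (exact permutation p = 0.333), where 10.7% of windows of 60 bins had this order. Domain numbers in the H19 and IGF2 window were 7 and 6 against 6 and 6 and did not separate the groups (exact permutation p = 1.0). This depended on the window, since with 0.5 or 2 Mb on each side, or with only domains wholly inside, the groups did not overlap (differences of −1, −3.5 and −1.5 domains, exact permutation p = 0.333 each). The share of windows along the genome with this order was not computed for these settings. Without shHNRNPU replicate 2 the KCNQ1 window still held 2 domains fewer than shLUC.

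On chromosome 14, DLK1 and MEG3 shared a domain in 3 of 4 libraries. DLK1 (chr14:100726892-100738224) and MEG3 (chr14:100826108-100861026) start 99.2 kb apart. A domain from 100.56 to 100.88 Mb (320 kb) held both in shLUC replicate 1 and in shHNRNPU replicate 1, with the same ends in each. Another border at 100.80 Mb separated them in shLUC replicate 2, with DLK1 in a domain of 240 kb and MEG3 in one of 920 kb (100.80 to 101.72 Mb). In shHNRNPU replicate 2 a domain of 1240 kb (100.32 to 101.56 Mb) held both. Of the domains of that library, 17.4% were as long or longer.

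Domain length at DLK1 was 320 and 240 kb in shLUC against 320 and 1240 kb in shHNRNPU, and at MEG3 320 and 920 kb against 320 and 1240 kb. The groups overlapped at both genes. The mean difference was 500 kb at DLK1 (280 ± 56.6 and 780 ± 651 kb, SD, n = 2 each, exact permutation p = 0.667). It was 160 kb at MEG3 (620 ± 424 and 780 ± 651 kb, exact permutation p = 1.0). shHNRNPU replicate 2 carried these differences, which were 40 kb at DLK1 and −300 kb at MEG3 without it. At MEG3 the difference was also turned, to −140 kb, without shLUC replicate 1. The nearest border to the MEG3 start was at 53.9 and 26.1 kb in shLUC and at 53.9 and 506 kb in shHNRNPU. For DLK1 these distances were 153 and 73.1 kb, and 153 and 407 kb.

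The part of the cluster beyond MEG3 holds RTL1 (a gene derived from a retrotransposon), the non-coding MEG8 and MEG9 with many small RNAs, and at the far end DIO3, which encodes an enzyme that inactivates thyroid hormone. The border at 100.88 Mb in shLUC replicate 1 and shHNRNPU replicate 1 fell inside RTL1 (chr14:100879753-100903722) and divided MEG3 from MEG8. RTL1 is shorter than a bin of 40 kb, so the calls cannot tell whether this border lies inside it. In shLUC replicate 2 and in shHNRNPU replicate 2, MEG3, RTL1, MEG8 and MEG9 shared a domain. All 41 C/D box snoRNA genes of the cluster lay in the same domain as each other in every library. They start between 100.898 and 100.993 Mb, close together, and are not separate cases. Of pairs of bins 2 bins apart with both in a domain, 90.7% to 92.1% shared a domain over the genome. Of the 50 microRNA hairpins counted at the cluster, 45 followed the border at 100.88 Mb in shLUC replicate 1 and all 50 were in the MEG3 domain in shLUC replicate 2. In shHNRNPU replicate 1, however, 26 of them lay in a gap from 101.04 to 101.08 Mb, which no other library had. These 26 hairpins are neighbours that mark the same gap, so they are not separate events.

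DIO3 lay in a domain in both shLUC libraries (800 and 920 kb, ending at 101.68 and 101.72 Mb). In both shHNRNPU libraries a domain ended at 101.56 Mb, just before DIO3 (chr14:101561495-101563452), and the gene was in a gap from 101.56 to 101.60 Mb. Beyond the gap these libraries differed. In replicate 2 the next domain began at 101.60 Mb. In replicate 1 a boundary region came first, and the next domain began at 101.68 Mb, where the domain of shLUC replicate 1 ended. Of all bins in a domain in both shLUC libraries, 0.0697% (48 of 68859) were in a gap in both shHNRNPU libraries, and DIO3 was singled out after its values were seen. The border at 101.56 Mb lay 120 kb from the nearest shLUC border, exactly the 3 bins within which a border was still counted as present. By that rule it was not counted as gained. A gene this close to the edge of a bin changes interval with a shift of 1 bin.

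**Figure D2:**
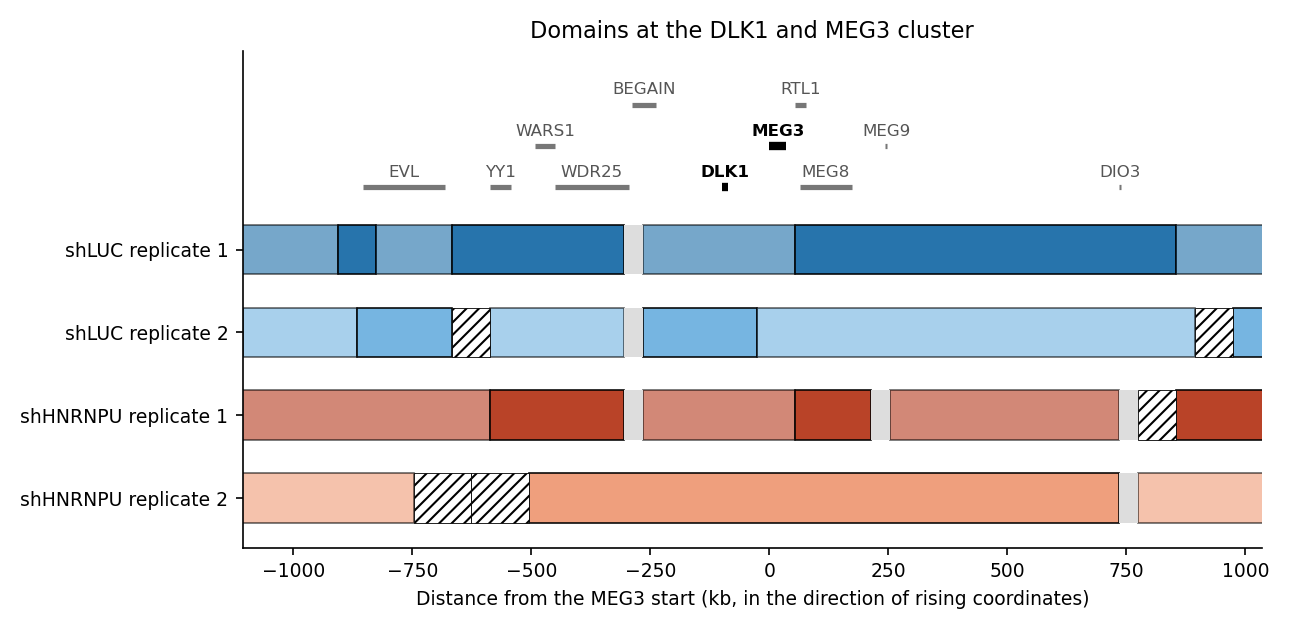
Domains (filled blocks, in alternating shades), boundary regions (hatched) and gaps (grey) within 1 Mb of the DLK1 and MEG3 span, by library, against the distance in kb from the MEG3 start. DLK1 and MEG3 share a block in every library except shLUC replicate 2, and DIO3 stands over a gap in the shHNRNPU libraries only.

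The window of chromosome 14 had 7 and 9 borders in shLUC and 8 and 4 in shHNRNPU, so that the groups overlapped (8 ± 1.41 and 6 ± 2.83, SD, n = 2 each, exact permutation p = 0.667). The difference of −2 borders was 0 without shHNRNPU replicate 2. The start of the DLK1 domain was steadier than its end. Borders at 100.52 Mb, within WDR25, and at 100.56 Mb, within the neuronal gene BEGAIN, bounded a gap of 1 bin. They were at the same bins in 3 libraries and absent in shHNRNPU replicate 2. Each lies less than a bin from an end of its gene, so the calls cannot tell whether it falls inside.

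On chromosome 15, SNRPN and UBE3A were in different domains in 3 of 4 libraries. The SNRPN gene (chr15:24823637-24978723) and UBE3A (chr15:25333728-25439056, read toward lower coordinates) start 615 kb apart. SNRPN started in a domain of 440 kb in shLUC replicate 1 (24.60 to 25.04 Mb) and of 280 kb in shLUC replicate 2 (24.76 to 25.04 Mb). In shHNRNPU replicate 1 it started in a domain of 120 kb, from 24.76 to 24.88 Mb. The border at 24.88 Mb fell within the gene, and the SNURF promoter printed above was in the next domain (24.88 to 25.04 Mb). In shHNRNPU replicate 2 a domain of 1920 kb, from 23.80 to 25.72 Mb, held SNRPN and UBE3A together, and 7.31% of the domains of this library were as long or longer. The mean length at SNRPN was 360 ± 113 kb in shLUC and 1020 ± 1273 kb in shHNRNPU (SD, n = 2 each, exact permutation p = 1.0). The shHNRNPU libraries lay on opposite sides of the shLUC libraries, and the difference of 660 kb became −240 kb without replicate 2.

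UBE3A started in domains of 640 and 360 kb in shLUC and of 200 and 1920 kb in shHNRNPU. The means were 500 ± 198 and 1060 ± 1216 kb (SD, n = 2 each, exact permutation p = 1.0), and the difference of 560 kb was −300 kb without shHNRNPU replicate 2. A border at 25.44 Mb lay 0.944 kb above the UBE3A start in shLUC replicate 2 and in shHNRNPU replicate 1, which left the whole gene in the domain below it. With bins of 40 kb, the calls cannot tell on which side of the start it fell. The libraries with this border were thus 1 of each group. The nearest border was 159 kb away in shLUC replicate 1 and 281 kb away in shHNRNPU replicate 2.

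SNHG14 (chr15:24823608-25419462) spans the ground between SNRPN and UBE3A and is the host of the repeated C/D box snoRNA genes SNORD116 and SNORD115. It was crossed by borders in 3 libraries. Both shLUC libraries had a gap from 25.04 to 25.08 Mb inside it, and shHNRNPU replicate 1 had a longer gap, from 25.04 to 25.24 Mb. The gap held 13 of the 30 SNORD116 genes in each shLUC library and all 30 in shHNRNPU replicate 1, with 38 of the 48 SNORD115 genes. The copies of each kind are neighbours, so these counts show where the gap ended and are not separate events. In shHNRNPU replicate 2 no border crossed SNHG14, and both snoRNA arrays lay in the long domain.

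NDN and MAGEL2, paternally expressed genes toward the centromere, were outside the SNRPN domain in every library. Beyond UBE3A, a border was present in both shHNRNPU libraries and absent from both shLUC libraries. It lay at 25.68 Mb in replicate 1 and at 25.72 Mb in replicate 2, inside the phospholipid transporter gene ATP10A (chr15:25672237-25865088), and no shLUC border was nearer than 200 kb. The position in replicate 1 is less than a bin from an end of ATP10A, so the calls cannot tell whether it falls inside. The structures differed. In replicate 1 a boundary region from 25.68 to 25.88 Mb followed and held the midpoint of ATP10A, and in replicate 2 the next domain began at once. Both shLUC libraries had a border at 25.92 Mb. The border shared by the shHNRNPU libraries was not counted when its positions had to be equal in both replicates, or when absence had to hold within 5 bins. With 3 bins, 2.94% of the 2689 borders that the shHNRNPU libraries shared over the genome were absent from shLUC. ATP10A was whole within a domain in both shLUC libraries, of 640 kb shared with UBE3A in replicate 1 and of 480 kb in replicate 2.

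**Figure D3:**
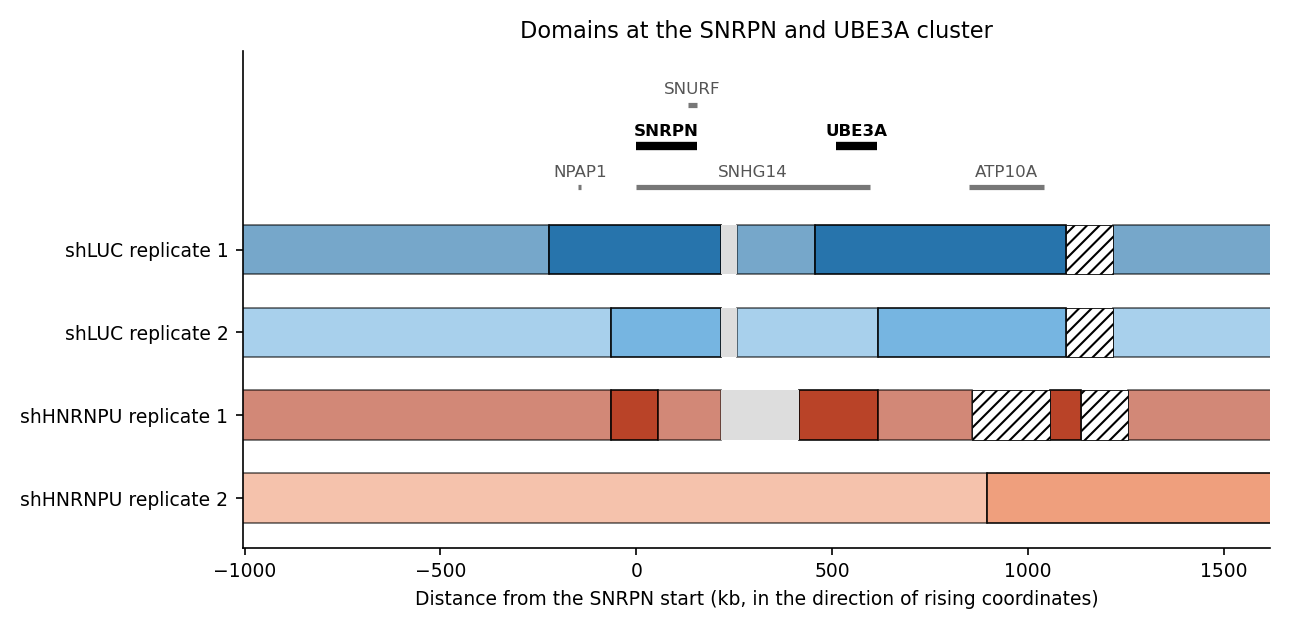
Domains (filled blocks, in alternating shades), boundary regions (hatched) and gaps (grey) within 1 Mb of the SNRPN and UBE3A span, by library, against the distance in kb from the SNRPN start. One block spans SNRPN and UBE3A in shHNRNPU replicate 2, whereas shHNRNPU replicate 1 has the shortest blocks.

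The window of chromosome 15 had 6 borders in each shLUC library, and with the HNRNPU hairpin 9 (replicate 1) and 1 (replicate 2). It held 5 domains in each shLUC library, and 7 and 2 domains in shHNRNPU. The control values thus fell between those of the shHNRNPU libraries (exact permutation p = 1.0 for both numbers), and without replicate 2 the difference in borders, −1, was 3 and that in domains, −0.5, was 2. Gaps covered 1.53% of the window in each control library, and 7.63% and 0% with the HNRNPU hairpin (replicates 1 and 2).

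The 7 genes were then set side by side. Of the 6 genes that started in a domain in every library, 0 had a longer domain in both shHNRNPU libraries than in both shLUC libraries, and 0 a shorter one in both. Over all bins that lay in a domain in every library, 15.7% were in longer and 10.6% in shorter domains by the same rule. At each of these 6 genes, and at KCNQ1 among the 3 libraries with a value, the longest domain was that of shHNRNPU replicate 2. This library had the longest domain at 37.7% of those bins, and the 7 genes share domains, so that they are not separate cases. The H19 and KCNQ1 starts kept the same distance to the nearest border in all 4 libraries. At the other 5 genes the distance varied and the groups overlapped or met, with an exact permutation p of 0.667 for IGF2, DLK1 and MEG3 and of 1.0 for SNRPN and UBE3A.

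**Figure D4:**
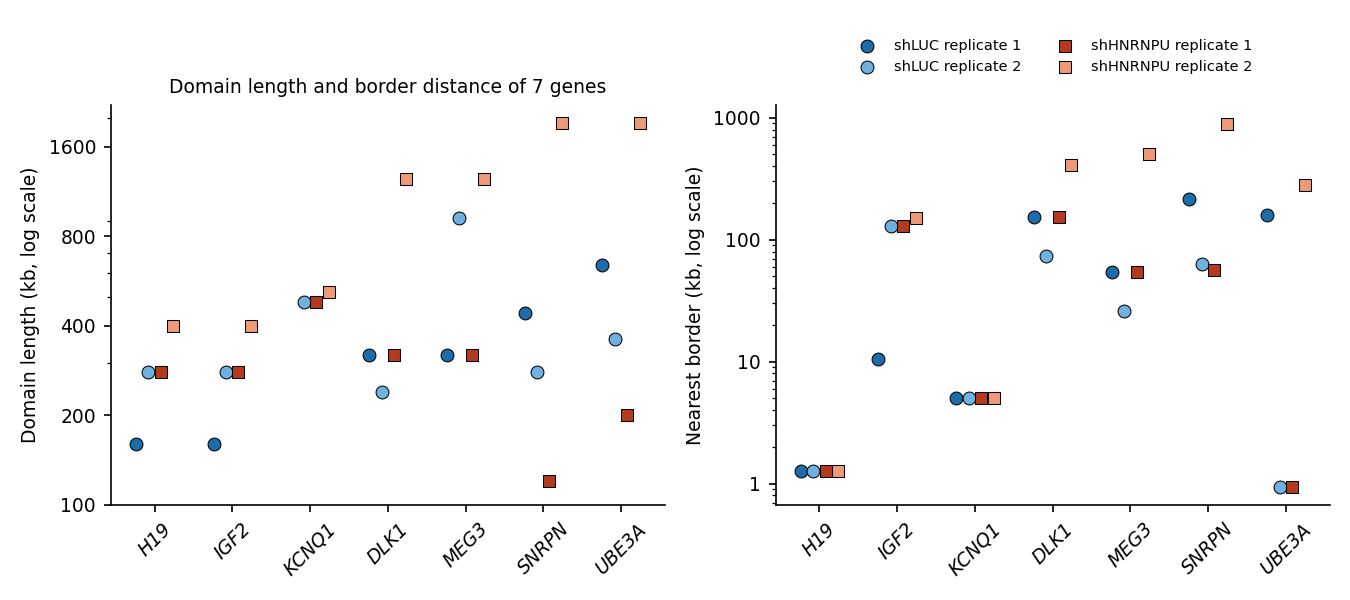
Left, length in kb of the domain at the start of each gene; right, distance in kb from that start to the nearest border (both axes logarithmic), with a point for each library. KCNQ1 has 3 points on the left because its start lay in a gap in shLUC replicate 1. shHNRNPU replicate 2 has the highest point at every gene on the left, and the points of H19 and KCNQ1 coincide on the right.

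Of the 5 pairs of these genes on the same chromosome, 2 and 1 shared a domain in shLUC, and 2 and 3 did so in shHNRNPU. The starts of H19 and IGF2, 148 kb apart, shared a domain in all 4. Of pairs of bins at that distance (3 bins) with both bins in a domain, 85.6% to 87.8% did so over the genome. The shares that follow were also taken over such pairs, with distances in whole bins. DLK1 and MEG3 shared one in 3 libraries, where 90.7% to 92.1% of pairs of bins at their distance did. SNRPN and UBE3A shared one in shHNRNPU replicate 2 alone. At their distance 33.2% to 33.4% of pairs of bins shared a domain in the other 3 libraries and 42.6% in this one. KCNQ1 shared a domain with neither H19 nor IGF2 in any library, where 46.7% to 54.8% and 60.0% to 66.3% of pairs of bins at those distances did. In shLUC replicate 1 the KCNQ1 start lay in a gap. Its pairs in that library were therefore not of the kind that these shares count.

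Borders present in both libraries of a group (within 1 bin) and absent from both of the other (none within 3 bins) were counted last. In the windows shLUC shared 17 borders, of which 2 were absent from shHNRNPU, the edges of the gap in OSBPL5. Over the genome 5.99% of 3322 were. In turn, shHNRNPU shared 9 borders in the windows, and 1 was absent from shLUC, the border within ATP10A. Here the share over the genome was 2.94% of 2689. With 2 and 1 such borders, no difference from the genome can be read. The borders of chromosome 11, at 1.44, 2.00 and 2.44 Mb, lay at the same bin in all 4 libraries. In the windows of chromosomes 14 and 15 no border was found within 1 bin in all 4, but those at 100.52, 100.56 and 25.04 Mb were at the same bin in the 3 libraries other than shHNRNPU replicate 2. Over the genome, 63.2% of the 1221 borders at the same bin in these 3 libraries were at it in shHNRNPU replicate 2 too.

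Border density was highest around H19 and IGF2. There were 4.17 to 5.56 borders per Mb there and 2.49 to 4.56 around KCNQ1, against 1.35 to 1.60 over all chromosomes. Around DLK1 and MEG3 there were 1.87 to 4.21 and around SNRPN and UBE3A 0.382 to 3.44. shHNRNPU replicate 2 had the lowest density in the last 3 of these windows, and it was equal to replicate 1 in the first. Gaps took 13% to 24.1% of the H19 and IGF2 window, against 5.35% to 5.44% of all sequence covered, and each gap adds borders at its edges. How much of the density this accounts for was not tested. The value over all chromosomes counts all sequence covered, gaps included, and the chromosome 11 windows overlap. The share of windows along the genome with densities this high was not computed.

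**Figure D5:**
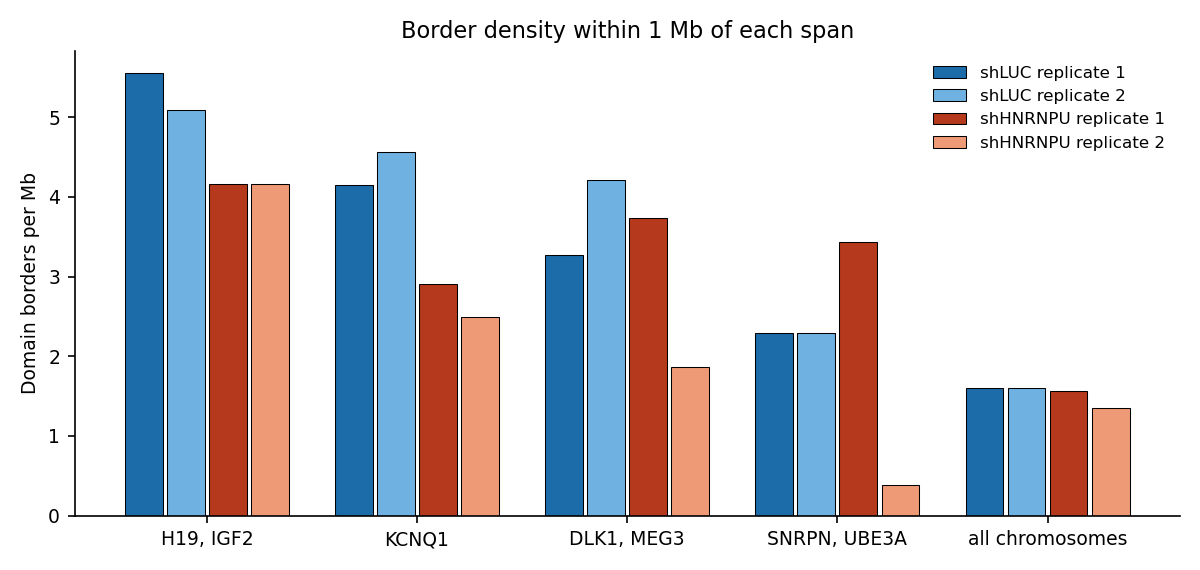
Borders per Mb (bars, starting at 0) within 1 Mb of each span and over all chromosomes, for each library. The bars of shLUC are above those of shHNRNPU in the chromosome 11 windows, the shHNRNPU bars lie on either side of shLUC in the SNRPN and UBE3A window, and replicate 2 has the lowest bar there.

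Of 35 other genes of these clusters, 5 and 13 shared the domain of the nearest of the 7 genes in shLUC, and 8 and 17 did so in shHNRNPU. The count of 5 in shLUC replicate 1 counts as apart those genes next to KCNQ1, whose start lay in a gap. Gaps held the midpoint of 2 and 4 of them in shLUC and of 9 and 4 in shHNRNPU. A border crossed the body of 10 and 7 genes in shLUC and of 8 and 5 in shHNRNPU. The groups overlapped on each of these counts. The matching shares of all genes over the genome were not computed, so these counts cannot be called high or low. TRPM5, an ion channel gene next to KCNQ1, was crossed by the border at 2.44 Mb in every library, and MRPL23, a mitochondrial ribosomal protein gene, was crossed by the border at 2.00 Mb that also crosses H19. Both genes end less than a bin beyond these borders, so the calls cannot tell whether the borders lie inside them.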

How the data were processed

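Hi-C was measured in 4 libraries of H1 cells, 2 with a hairpin against luciferase and 2 with a hairpin against HNRNPU, grouped by their titles. The authors deposited 12 interval files, 3 per library, which list domains, boundary regions and gaps with start and end positions in multiples of 40 kb, with no further column. Per the labels the build was hg38 and Bowtie2 was used. The matrix normalization and the domain caller are not given in the sources used here, and they can change where borders fall. The last interval ended at most 1 bin past the hg38 end on 12 chromosomes, at the last bin on 4 and up to 3 bins before it on 8, and the first domain of chromosomes 14 and 15 started at 16 and 17 Mb in every library. Positions are therefore hg38, printed in Mb as the edges of bins and otherwise counted from 1.

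Gene positions came from RefSeq (GRCh38.p14). All 7 genes matched, as did 35 of 37 others listed for the clusters; the remainder are not reported here. Strands came from the promoter table for 4 genes and from general knowledge for IGF2, KCNQ1 and DLK1. A gene was placed by its start, the other genes by their midpoints. The genes and lists were chosen with earlier results of these data known. The text names the 7 genes, and others of the lists where a border lay within them or where their domain differed from that of the nearest of the 7.

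Group means were compared by exact two-sided permutation of the libraries. A border of a library was matched to the nearest free border of the other library within 1 bin, and an absent border had none within 3 bins (120 kb). Background shares were taken over all bins, pairs of bins, windows and borders of the genome, which overlap and are not independent. Pairs of bins were counted only where both bins lay in a domain. Alternatives were other windows, gene midpoints, other distances, domains of at least 3 bins, short domains joined to a neighbour, a replicate block, and each library left out in turn. Python 3.11.15, numpy 2.4.6, pandas 2.3.3 and matplotlib 3.10.9 were used. The paper named for these data does not describe this experiment, and no method was taken from it.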

Additional observations from a re-analysis of the deposited data

How the results depend on the processing

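Of 59 values computed under an alternative that kept all 4 libraries, 50 kept their direction, or for counts stayed within 1.5-fold, 9 did not, and 0 changed sign. With a window of 0.5 Mb the difference in domain number was 0 on chromosome 14 and 0 on chromosome 15. From the KCNQ1 midpoint the nearest border differed by 80 kb instead of 0 kb. Lost borders numbered 2 as reported, 4 with absence within 1 bin, 0 within 5 bins and 5 in windows of 2 Mb. Gained borders numbered 1 as reported, 0 where positions had to be equal, 2 with absence within 1 bin and 0 within 5 bins. The matching rule or the length searched sets these numbers, and the cause of the other shifts was not tested. The domain number around H19 and IGF2 kept its direction but separated the groups under 3 alternatives, by −1 with 0.5 Mb, −3.5 with 2 Mb and −1.5 with domains wholly inside. No share over the genome was computed for these. The midpoint of H19 lay in a gap in every library and gave no domain length. By midpoints, H19 therefore shared no domain with IGF2. Taking the domain that held most of the gene body was chosen after seeing the data, and it turned no direction. At H19 no domain held most of the body, the larger part of which lay in a gap. The domain at its start was therefore used again, and the value there is no alternative.

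With each library left out in turn, 8 of 83 values changed sign. shHNRNPU replicate 2 decided most of these, and each without it lies at the end of a range. Domain number differed by −1 to 0 (H19 and IGF2, 0 without shLUC replicate 1), −3 to −2 (KCNQ1), −3.5 to −0.5 (chromosome 14) and −3 to 2 (chromosome 15, 2 without shHNRNPU replicate 2). Domain length differed by 60 to 180 kb at H19 and at IGF2, 0 to 40 kb at KCNQ1, 40 to 960 kb at DLK1, −300 to 620 kb at MEG3, −240 to 1560 kb at SNRPN and −300 to 1420 kb at UBE3A. The nearest border differed by 0 kb throughout at H19 and KCNQ1, and by 9.57 to 130 kb at IGF2, 40 to 294 kb at DLK1, 13.9 to 466 kb at MEG3, −83.6 to 756 kb at SNRPN and −79.1 to 201 kb at UBE3A (−18.1 kb without shLUC replicate 2). The mean number of pairs sharing a domain differed by 1 as reported and by 0.5 to 1.5. Lost borders numbered 3 to 9 (9 without shHNRNPU replicate 1) and gained borders 1 to 3 (3 without shHNRNPU replicate 2). The rule is looser when fewer libraries have to share or lack a border, and what set the size of each count was not tested.

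With a replicate block (replicate 1 set against replicate 1, and 2 against 2) 17 results had differences equal to those reported, for example −2.5 domains in the KCNQ1 window and 660 kb at SNRPN. As each library is in a pair, the mean of the paired differences equals the difference of the means by arithmetic. The equality is therefore no check of these results. The exact sign-flip p of the block was 0.5, the smallest possible with 2 pairs, in 5 of the 17 results and 1.0 in 12. Nothing in the labels ties a replicate number to a batch, and the deviations of same-numbered libraries in domains per chromosome had a correlation of 0.0941 over 24 chromosomes. The KCNQ1 domain length has a single pair and no block. Unknown depth limits every comparison here.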
